A study of Mus musculus with 6 samples.

Results

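The AMPA receptor genes described here are the 4 pore subunits Gria1, Gria2, Gria3 and Gria4, the cornichons Cnih2 and Cnih3, the transmembrane AMPA receptor regulatory proteins (TARPs) Cacng2, Cacng3 and Cacng8, and Shisa6. These 10 genes were picked out by symbol from the 54752 genes of the count tables. The rule uses no measured value, though the set was proposed with earlier results of these data known. All 10 passed the filter on low counts, and the lowest count of any of them in any library was 1177. The libraries were made from the entire right hippocampus of 6 wild-type male C57BL/6 mice (C57BL/6 J in the methods) labelled with a time of 14 weeks, read here as their age, with 1 library per mouse. The 3 BCAS mice (bilateral carotid artery stenosis) had both common carotid arteries wrapped with a microcoil, with the narrower coil on the right, the side that was sequenced. The 3 sham mice had the arteries exposed in the same way but received no coil. Tissue was taken 3 weeks after surgery, and the groups differed in no allele or drug. Library totals ran from 29652456 to 35607098 counts, and levels are given as CPM (counts scaled to the library total) after TMM normalization.

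AMPA receptors are tetrameric cation channels that carry most fast excitatory transmission in the brain, including that at synapses onto hippocampal pyramidal cells. The GluA subunits encoded by Gria1 to Gria4 form the pore, and the edited GluA2 subunit makes it poorly permeable to calcium. Cornichons, TARPs and Shisa proteins sit beside the pore in the membrane, where they control export from the endoplasmic reticulum, anchoring at the synapse and the speed of desensitization.

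The AMPA receptor genes were lower in BCAS mice, by unequal amounts. Of the 10 genes, 7 fell at an adjusted P under 0.05 (edgeR's quasi-likelihood test, Benjamini-Hochberg adjustment over 18617 genes) and none rose, where 13.2% of all tested genes fell and 18.0% rose. Shisa6, Cnih2, Gria1 and Cacng8 also passed a log2 fold change of -1, which 0.999% of tested genes did, and their group means were 44.1%, 47.9%, 48.1% and 49.2% of the sham means. Gria2, Gria3 and Cnih3 fell less, to 63.2%, 64.9% and 59.7%. Cacng2, Cacng3 and Gria4 did not pass the test, at 77.3%, 76.2% and 91.6% of the sham mean. The fitted log2 fold change was below 0 for all 10 genes, except that Gria4, Cacng2 and Cacng3 were above 0 when levels were scaled on neuronal markers as described further on, and Gria4 was at 0.0030 without BCAS mouse 1. The median over the 10 genes was -0.70, against 0.018 over all tested genes. In 8 of the 10 genes every BCAS mouse lay below every sham mouse, as did 22.7% of tested genes. A test against a fold change of at least 2-fold (edgeR's glmTreat) called 0 of the 10 genes, with 0 at an unadjusted P under 0.05 and a smallest unadjusted P of 0.0867, so none of the falls was shown to exceed 2-fold. By DESeq2, 8 of the 10 genes were lower at an adjusted P under 0.05, where 15.7% of tested genes were, and 4 passed both thresholds, as did 1.05% of tested genes in this direction.

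**Figure D1:**
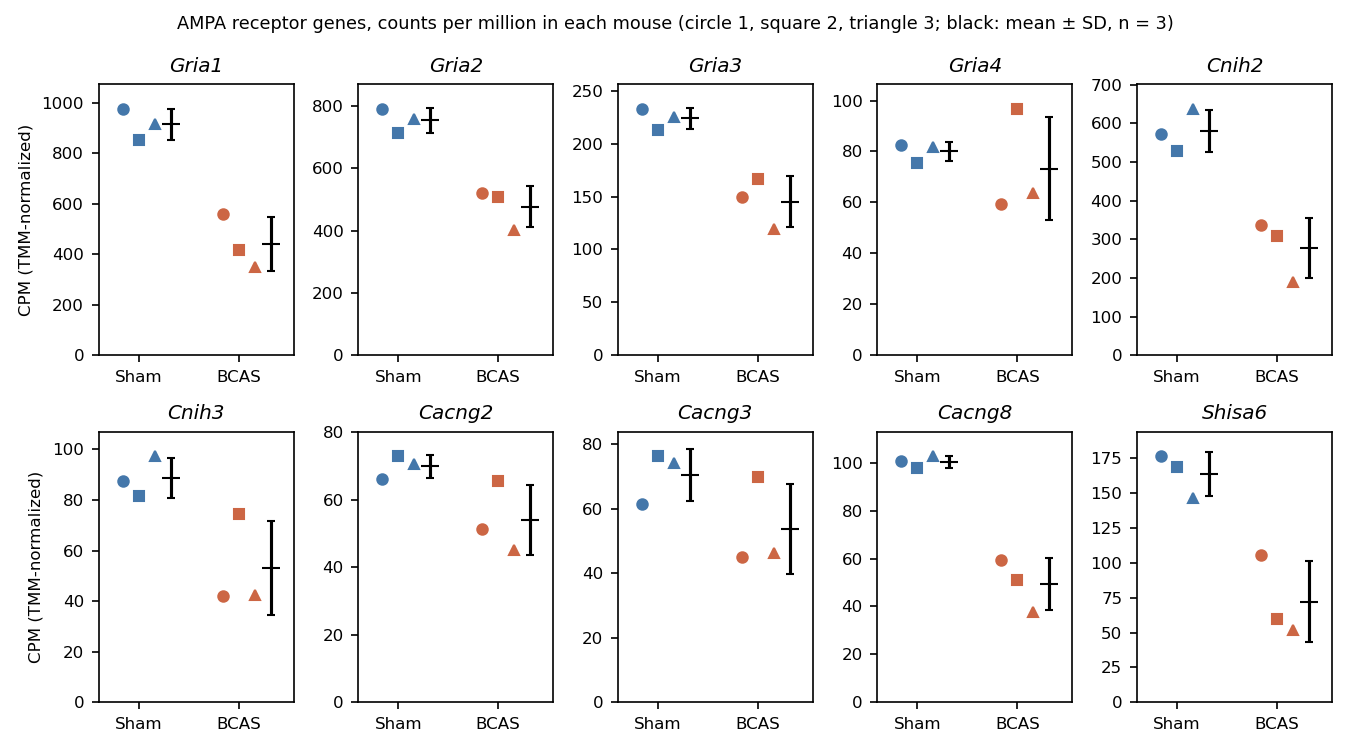
Each panel plots 1 gene in CPM after TMM normalization, with sham mice in blue, BCAS mice in red, a symbol for each mouse number and the mean ± SD of 3 mice in black. The groups are separate for 8 genes, and BCAS mouse 2 lies inside or above the sham range for Gria4 (96.6 CPM) and Cacng3 (69.9 CPM).

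These values come from bulk tissue, in which fewer cells of a type and less RNA per cell cannot be told apart. The summed level of 12 pan-neuronal markers lay between 7689 and 8391 CPM in sham mice, while BCAS mice had 4481 to 6279 CPM, 67.6% of the sham mean, and 9 of the 12 fell. Markers of CA1 pyramidal cells stood at 60.1% of the sham mean, those of CA3 and CA2 at 59.2%, those of dentate granule cells at 88.8% and those of interneurons at 65.0%. Astrocyte markers stood at 213%, or at 144% over the 7 markers other than Gfap (left out after the values were seen), and microglia markers at 712%. Of the 8 dentate markers 3 fell, and the mean log2 level of that list differed by -0.57 between the groups. Of the 8 CA3 and CA2 markers 4 fell and 1, Coch, rose by 0.74 on the log2 scale (edgeR adjusted P = 0.0267). Of the 7 CA1 markers 4 fell, and of the 10 interneuron markers 7 did, where 13.2% of all tested genes fell. No neuronal marker of these 5 lists was at 0 in any library. Choroid plexus markers varied among the libraries of both groups, with 71.4 to 4113 CPM among sham and 40.7 to 5968 CPM among BCAS libraries. The part of these shifts in the results for the AMPA receptor genes was not tested.

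The promoters of the genes are shown because genes that fell can be set beside a gene of the same family that did not pass the test. RefSeq promoter sequences, from 250 bases before to 50 bases after the start site in build GRCm38.p6, were matched for 7 of the 10 genes by symbol. Gria1, Gria3 and Shisa6 had no entry. The sequences below are those of Gria2 (chr3:80802786-80803085, minus strand) and Cnih2 (chr19:5098472-5098771, minus strand), which fell, and of Gria4 (chr9:4796185-4796484, minus strand), which did not pass the test. They run 5′ to 3′, and capitals mark matches to a searched motif.
Gria2: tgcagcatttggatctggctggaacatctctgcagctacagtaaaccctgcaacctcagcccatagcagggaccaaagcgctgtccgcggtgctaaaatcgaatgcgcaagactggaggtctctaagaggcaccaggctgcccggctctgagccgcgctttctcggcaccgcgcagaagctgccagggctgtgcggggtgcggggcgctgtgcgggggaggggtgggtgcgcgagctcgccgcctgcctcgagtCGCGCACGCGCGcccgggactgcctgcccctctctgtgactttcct
Cnih2: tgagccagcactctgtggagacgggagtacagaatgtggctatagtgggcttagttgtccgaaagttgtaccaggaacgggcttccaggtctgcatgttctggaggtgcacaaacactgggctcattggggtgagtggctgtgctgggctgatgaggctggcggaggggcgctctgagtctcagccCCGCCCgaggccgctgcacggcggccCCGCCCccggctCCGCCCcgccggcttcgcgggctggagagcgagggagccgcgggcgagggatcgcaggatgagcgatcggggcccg
Gria4: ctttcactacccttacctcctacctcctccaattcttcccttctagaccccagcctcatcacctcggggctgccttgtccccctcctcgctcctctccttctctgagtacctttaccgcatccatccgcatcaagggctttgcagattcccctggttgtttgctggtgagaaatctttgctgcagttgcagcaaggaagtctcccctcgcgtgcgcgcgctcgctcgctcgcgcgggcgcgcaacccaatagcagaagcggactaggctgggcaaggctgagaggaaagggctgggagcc

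On both strands, the motifs searched were the GC box GGGCGG, the NRF-1 consensus motif, the cAMP response element TGACGTCA and its core TGACG, which lies within the full element. Gria2 held 1 NRF-1 motif, which 1.27% of the 32851 promoters in the table hold. Cnih2 held 3 GC boxes and Cnih3 held 1, and 35.7% of all promoters hold at least 1. The Gria4, Cacng2, Cacng3 and Cacng8 windows held none of these letters. The cAMP response element and its core were in 0 of the 7 windows, while 1.79% and 20.8% of all promoters hold them. For Cacng8, Cacng3 and Cacng2 the RefSeq start lies 3359, 1252 and 748 bases from the upstream boundary of the gene in the count tables. Those windows may therefore not sit at the start used by the counted transcripts. A match of letters is a description of the window and not evidence of binding.

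Gria1 encodes GluA1, a subunit whose phosphorylation and synaptic insertion are central to long-term potentiation in CA1. The gene lies at chr11:57011387-57330244 (mm10, plus strand). It measured 974, 853 and 915 CPM in sham mice 1, 2 and 3, and 558, 415 and 347 CPM in BCAS mice 1, 2 and 3. The groups were well apart, and the spread among BCAS mice exceeded that among sham mice. Gria1 fell from 914 ± 60.5 to 440.0 ± 107 CPM (SD, n = 3 mice per group), a log2 fold change of -1.06 with a standard error of 0.165 (adjusted P = 0.00191).

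Gria2 encodes GluA2, the subunit that limits calcium entry (chr3:80681450-80802835, minus strand). Its level was 790.2, 713 and 759 CPM in sham mice and 521, 507 and 401 CPM in BCAS mice, so that BCAS mice 1 and 2 were close and BCAS mouse 3 was lowest. The log2 fold change of Gria2 was -0.66 with a standard error of 0.118 (adjusted P = 0.00358). Gria3 encodes GluA3, which pairs mainly with GluA2 (chrX:41400854-41678601, plus strand). It stood at 233, 213 and 226 CPM in sham mice and at 149.9, 167 and 119 CPM in BCAS mice, again without overlap. Gria3 fell by 0.62 on the log2 scale with a standard error of 0.118 (adjusted P = 0.00471).

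Gria4 encodes GluA4, which in the adult hippocampus is known from interneurons and glial precursors more than from pyramidal cells (chr9:4417896-4796234, minus strand). Sham mice had 82.5, 75.6 and 81.9 CPM of Gria4, and BCAS mice had 59.6, 96.6 and 63.7 CPM. BCAS mice 1 and 3 were below all sham mice and BCAS mouse 2 was above them all. The log2 fold change of -0.13 had a standard error of 0.164 and did not pass the test (adjusted P = 0.597). It came to -0.38 without BCAS mouse 2 (adjusted P = 0.00673, where 16.6% of tested genes fell) and to 0.0030 without BCAS mouse 1 (adjusted P = 0.992). In BCAS mouse 2 the summed excitatory neuron markers were at 1353 CPM, above the other BCAS mice (1210 and 818 CPM) and below the sham range of 1813 to 1984 CPM. Its dentate marker sum of 273 CPM and its choroid plexus sum of 40.7 CPM were the lowest of the 6 libraries. Markers of oligodendrocyte precursors summed to 325 to 358 CPM in the sham libraries and 363 to 442 CPM in the BCAS libraries, and those of interneurons to 1307 to 1489 and 808 to 1007 CPM. The part of these differences in the Gria4 values was not tested.

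Divided by summed exon length, the level of Gria1 to Gria4 together was 235 ± 14.1 CPM per kb in sham mice and 130 ± 22.7 CPM per kb in BCAS mice (SD, n = 3 each), 55.2% of the sham mean. Within that sum the share of Gria1 was 64.8%, 64.0% and 64.1% in sham mice and 61.3%, 51.4% and 54.5% in BCAS mice. The mean share of Gria1 was 64.3% ± 0.441 and 55.8% ± 5.07 (SD, n = 3 each). Gria2 made up 20.6% ± 0.176 and 23.7% ± 1.25 of the sum, and Gria3 made up 9.66% ± 0.156 and 11.4% ± 1.29. The share of Gria4 was 5.26%, 5.44% and 5.50% in sham mice and 6.28%, 11.5% and 9.58% in BCAS mice. None of the 4 shares overlapped between the groups, but they are parts of the same sum and not separate results. A lower share of Gria1 leaves higher shares for the rest, and no pore subunit was called higher in BCAS mice. BCAS mouse 1 lay closest to the sham mice for each subunit. Without division by length, Gria1 and Gria2 made up 46.3% and 38.2% of the summed CPM in the sham libraries and 38.5% and 42.1% in the BCAS libraries, so the order of the 2 group means in BCAS mice depended on the length used. In BCAS mouse 1 Gria1 was above Gria2 with and without that division.

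**Figure D2:**
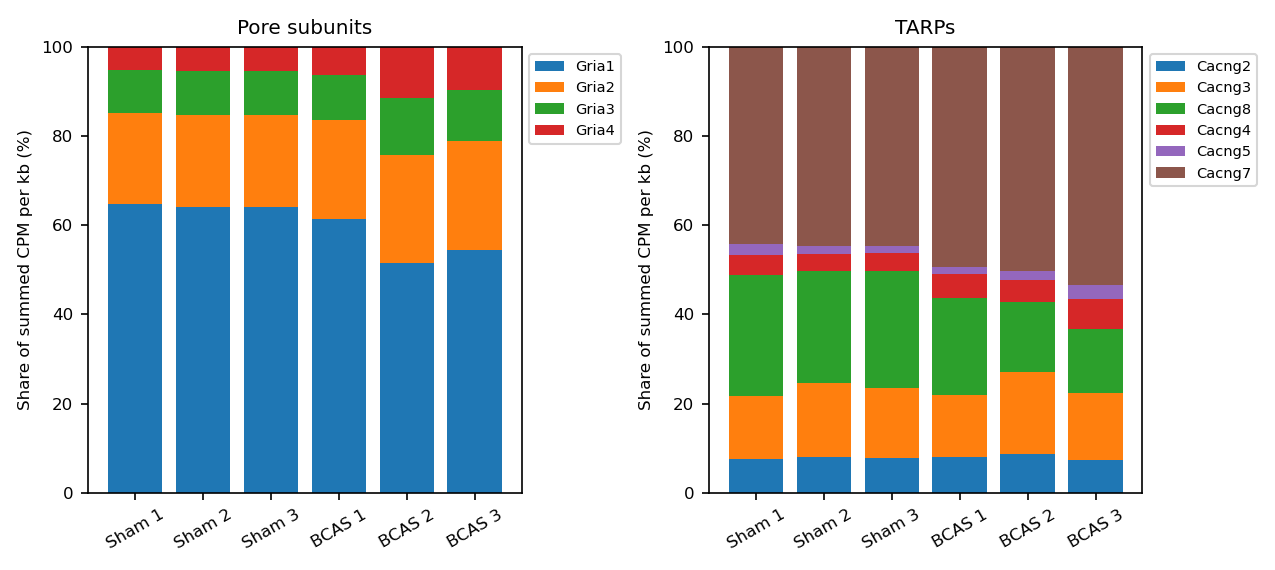
Stacked bars give the share (%) of each gene in the summed CPM per kb of exon in every mouse, for the 4 pore subunits (left) and 6 TARPs (right). Gria1 takes 64.0% to 64.8% in sham and 51.4% to 61.3% in BCAS mice, and Cacng8 takes 25.2% to 27.2% and 14.5% to 21.7%.

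Ratios within a library do not depend on how libraries are scaled, and 5 pairs were compared. The log2 ratio of Gria1 to Gria2 per length was 1.67, 1.62 and 1.63 in sham mice and 1.46, 1.08 and 1.15 in BCAS mice, a difference of -0.41. That of Gria4 to Gria2 differed by 0.51 and that of Cacng8 to Cacng2 by -0.66, also without overlap. For Gria3 to Gria2 the ratio differed by 0.034, with a sham SD of 0.0111 and a BCAS SD of 0.103, and the groups overlapped. The log2 ratio of Cnih2 to Cnih3 was 3.86, 3.85 and 3.87 in sham mice and 4.16, 3.20 and 3.30 in BCAS mice. BCAS mouse 1 was above all sham mice and the other BCAS mice were below them, so the difference of -0.31 became -0.61 without BCAS mouse 1, -0.13 without BCAS mouse 2 and -0.18 without BCAS mouse 3. With 3 libraries per group, the lowest P that an exact permutation test (two-sided) can reach is 0.1, so no pair could pass 0.05. The exact test gave P = 0.1 for the 3 pairs without overlap, 0.9 for Gria3 to Gria2 and 0.4 for Cnih2 to Cnih3 (0.167, 0.9 and 0.5 after Benjamini-Hochberg adjustment over the 5 pairs).

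The cornichons were first known as cargo receptors of the secretory pathway, and in hippocampal pyramidal cells they slow the closing of AMPA receptors and help GluA1 reach the surface. Cnih2 lies at chr19:5092871-5098418 (minus strand). It read 572, 529.8 and 637 CPM in sham mice and 336, 308 and 188 CPM in BCAS mice. BCAS mouse 3 was clearly the lowest library and no BCAS mouse reached the sham range. The log2 fold change of Cnih2 was -1.06 with a standard error of 0.194 (adjusted P = 0.00397). Cnih3 (chr1:181352628-181460641, plus strand) read 87.4, 81.6 and 97.2 CPM in sham mice and 41.9, 74.4 and 42.6 CPM in BCAS mice, so BCAS mouse 2 was just under the sham range while the other BCAS mice were far below it. Cnih3 fell by 0.75 on the log2 scale with a standard error of 0.204 (adjusted P = 0.0231). This call was lost when sham mouse 1, sham mouse 3, BCAS mouse 1 or BCAS mouse 3 was left out (adjusted P = 0.0706, 0.0895, 0.0612 and 0.0733), with log2 fold changes of -0.76, -0.68, -0.60 and -0.61. Without BCAS mouse 2 it was -1.08.

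TARPs bring AMPA receptors to the surface and hold them at the synapse through PSD-95. Cacng8 encodes γ-8, the TARP for which the hippocampus is the main site of expression (chr7:3390683-3415648, plus strand). It stood at 100.5, 97.7 and 103 CPM in sham mice and 59.4, 51.0 and 37.7 CPM in BCAS mice. Sham mice differed little and all BCAS mice were far below them. The standard error was the smallest among the 4 genes past both thresholds. Cacng8 fell by 1.02 on the log2 scale with a standard error of 0.142 (adjusted P = 0.00100). Cacng2 encodes γ-2, or stargazin, the founding TARP (chr15:77991748-78120028, minus strand). Its values were 66.1, 72.9 and 70.8 CPM in sham mice and 51.5, 65.5 and 45.0 CPM in BCAS mice, with BCAS mouse 2 just below sham mouse 1. The log2 fold change of Cacng2 was -0.37 with a standard error of 0.127 and missed the threshold (adjusted P = 0.0535). It passed in DESeq2 (adjusted P = 0.0237) and limma-voom (adjusted P = 0.0453). An antisense gene, A730060N03Rik, shares 323 bases or 5.86% of the Cacng2 exons, and strand was not used in counting.

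Cacng3 encodes γ-3, found in cortex as well as hippocampus (chr7:122670492-122769393, plus strand). Sham mice had 61.3, 76.2 and 74.0 CPM and BCAS mice had 45.0, 69.9 and 46.2 CPM, so that BCAS mouse 2 exceeded sham mouse 1. Its log2 fold change of -0.39 had a standard error of 0.168 (adjusted P = 0.108). Without BCAS mouse 2, Cacng2 and Cacng3 passed the test at -0.54 and -0.63 (adjusted P = 0.00232 and 0.00244). Of the summed CPM per kb of 6 TARPs, Cacng8 made up 26.2% ± 1.02 in sham and 17.3% ± 3.85 in BCAS mice. Cacng7 took 44.5% ± 0.184 and 51.0% ± 2.16 (SD, n = 3 each), while the shares of Cacng2 and Cacng3 overlapped between the groups.

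Shisa6 encodes a membrane protein of the CKAMP44 family that binds PSD-95 and keeps synaptic AMPA receptors from desensitizing (chr11:66211725-66525964, minus strand). It measured 176, 168 and 146 CPM in sham mice and 105, 59.4 and 51.9 CPM in BCAS mice. BCAS mouse 1 stood well above the other BCAS mice, and the groups did not overlap. Shisa6 fell by 1.18 on the log2 scale, the most of the 10 genes, with the largest standard error of them, 0.232 (adjusted P = 0.00563). This rank did not hold without BCAS mouse 2, where Cnih2 was at -1.15, Cnih3 at -1.08 and Shisa6 at -1.07.

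The BCAS mice were not alike in these genes. Of the 10 genes, 7 were lowest in BCAS mouse 3 and 3 in BCAS mouse 1. The highest of the BCAS values belonged to BCAS mouse 1 for 5 genes (Gria1, Gria2, Cnih2, Cacng8 and Shisa6) and to BCAS mouse 2 for the other 5 (Gria3, Gria4, Cnih3, Cacng2 and Cacng3). BCAS mouse 3 also had the lowest pan-neuronal sum, 4481 CPM, and the highest microglia sum, 2948 CPM against 1827 and 1957 CPM in BCAS mice 1 and 2. Without BCAS mouse 3, 6 genes passed the adjusted P, where 9.51% of tested genes fell, and 0 of them passed the log2 fold change of -1, which 0.494% of tested genes did.

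Per kb of exon, Cnih2 was the most abundant of the 10 genes in sham mice, at 469 ± 43.7 CPM per kb, followed by Gria1 at 151 CPM per kb, Gria2 at 48.5 ± 2.50, Cacng8 at 42.7 ± 1.05 and Cnih3 at 32.3 ± 2.87 CPM per kb (SD, n = 3). The SD ranges of Cacng3 at 25.4 ± 2.89, Gria3 at 22.7 ± 1.01 and Shisa6 at 21.9 ± 2.09 CPM per kb overlapped one another. Gria4 and Cacng2 were lowest and alike, at 12.7 ± 0.601 and 12.7 ± 0.635 CPM per kb. In BCAS mice the first 3 places were held by the same genes, at 224 ± 63.4, 72.8 ± 17.8 and 30.6 ± 4.20 CPM per kb. Below them the SD ranges of neighbours in the order overlapped, from Cacng8 at 21.1 ± 4.65 CPM per kb to Shisa6, now last, at 9.69 ± 3.87 CPM per kb. These levels depend on the exon length of the annotation, which is 1237 bases for Cnih2 and 15548 bases for Gria2.

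Set against the 12 pan-neuronal markers, the AMPA receptor genes fell into different places. The mean log2 CPM of the markers was itself lower by 0.54 in BCAS mice, and each gene's log2 CPM was taken relative to it in the same library. Relative to the markers, Gria1 differed by -0.54, Cnih2 by -0.56 and Cacng8 by -0.51, with every BCAS mouse below every sham mouse. Shisa6 differed by -0.71, but BCAS mouse 1 at -0.11 lay within the sham range of -0.22 to 0.15. Gria2 differed by -0.13 with overlap, at -0.0065, -0.24 and -0.15 in BCAS mice 1, 2 and 3, and Gria3 by -0.099 without overlap. Cnih3 differed by -0.26 with overlap, at -0.55, 0.083 and -0.30 in BCAS mice 1, 2 and 3. Cacng2 and Cacng3 differed by 0.15 and 0.12, with overlap. Cacng3 was at -0.12, 0.33 and 0.15 in BCAS mice 1, 2 and 3, so its sign varied among them. Gria4 differed by 0.38, with all BCAS mice above all sham mice, on a scale where a gene with unchanged CPM has a positive value.

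The same question was put to the counts by scaling libraries on the summed counts of these markers, of which Snap25, Syt1 and Map2 made up 61.6%. This moved the median log2 fold change of all tested genes from 0.018 to 0.61, so every value below is relative to those 12 genes. The log2 fold change of Gria1 was then -0.48 (edgeR adjusted P = 0.0207), that of Cnih2 -0.51 (adjusted P = 0.0116), that of Cacng8 -0.46 (adjusted P = 0.0227) and that of Shisa6 -0.61 (adjusted P = 0.0407). Under this scaling 0.564% of tested genes were lower and 55.2% were higher at an adjusted P under 0.05. Gria4 was higher by 0.43 (adjusted P = 0.0312), a direction shared with most genes under it. Gria2, Gria3 and Cnih3 at -0.092, -0.061 and -0.20, and Cacng2 and Cacng3 at 0.19 and 0.17, did not pass (adjusted P of 0.474, 0.636, 0.310, 0.223 and 0.356).

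With other neuronal lists as the reference the separation varied. Relative to 10 markers of interneurons, Gria1, Cnih2 and Cacng8 differed by -0.57, -0.59 and -0.54 without overlap. Relative to 6 markers of excitatory neurons, Gria1, Cnih2, Cacng8 and Shisa6 differed by -0.44, -0.46, -0.41 and -0.61, each with overlap between the groups. In that order they were at -0.027, -0.099, -0.071 and 0.053 in BCAS mouse 1. In BCAS mouse 2 they were at -0.74, -0.51, -0.58 and -1.06, and in BCAS mouse 3 at -0.56, -0.78, -0.57 and -0.81. Relative to 7 markers of CA1 pyramidal cells, the same 4 genes differed by -0.29, -0.31, -0.25 and -0.45, again with overlap. Gria2 and Gria3 differed by 0.12 and 0.16, also with overlap. In BCAS mice 1, 2 and 3 Gria2 stood at 0.38, -0.075 and 0.071, and Gria3 at 0.33, 0.075 and 0.069. For the first 4 genes BCAS mouse 1 lay above the sham mean and BCAS mice 2 and 3 below it. When BCAS mice were left out in turn, a setting chosen after seeing the data, they differed by -0.53, -0.52, -0.45 and -0.82 without BCAS mouse 1, by -0.11, -0.26, -0.14 and -0.20 without BCAS mouse 2, and by -0.22, -0.14, -0.16 and -0.34 without BCAS mouse 3. Gria4 lay above the sham range in every BCAS mouse relative to both of these lists, at 0.48 and 0.64, and so did Cacng2, at 0.25 and 0.41. Gria4 was also without overlap relative to the interneuron markers, at 0.35. The mean log2 CPM of the excitatory, CA1 and interneuron lists was itself lower in BCAS mice, by 0.64, 0.79 and 0.51. The median log2 fold change of all tested genes was 0.018, so a gene with unchanged CPM has a positive value on these scales. How many of all genes were without overlap on these scales was not counted. Relative to the dentate markers Gria4 overlapped, at 0.41, with -0.25, 1.38 and 0.093 in BCAS mice 1, 2 and 3. Shisa6 differed by -0.68 without overlap, with -0.46, -0.35 and -1.23 in these mice. Gria1, Cnih2 and Cacng8 differed by -0.51, -0.54 and -0.48 relative to the dentate markers, each with overlap.

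**Figure D3:**
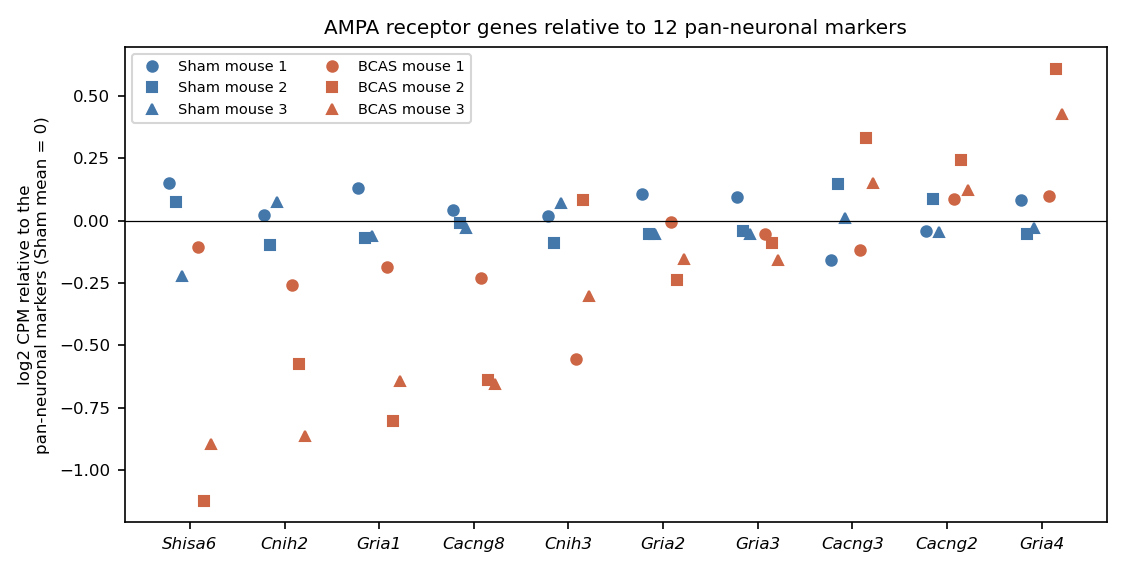
The vertical axis gives log2 CPM of each gene minus the mean log2 CPM of 12 pan-neuronal markers in the same library, set to a sham mean of 0, with a symbol for each of the 3 sham (blue) and 3 BCAS (red) mice. Gria1, Cnih2 and Cacng8 lie below the sham mice in every BCAS mouse, and Gria4 lies above them in every BCAS mouse.

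The other genes of AMPA receptors were taken from lists of further auxiliary proteins, assembly factors, and anchoring and traffic proteins. Of these 42 genes 41 were tested, 21 fell, 1 rose, and their median log2 fold change was -0.40. Prrt2, with 3 to 9 counts per library, was below the filter. Among 12 tested auxiliary proteins and synaptic organizers, 4 fell. Nptx2, a pentraxin that clusters AMPA receptors and is induced by activity, fell by 1.31 on the log2 scale with a standard error of 0.157 (adjusted P = 0.000429). Syndig1, a synapse differentiation protein that binds AMPA receptors, fell by 1.16 (adjusted P = 0.000179). Prrt1, or SynDIG4, fell by 0.73 (adjusted P = 0.00530) and Shisa7 by 0.70 (adjusted P = 0.00633). Shisa8 rose by 1.17 (adjusted P = 0.00937) from a low level of 2.45 to 4.28 CPM in the sham libraries, with 5.82 to 9.71 CPM in the BCAS libraries. The TARP Cacng7 had a log2 fold change of -0.23 (adjusted P = 0.0729) and Shisa9, or CKAMP44, one of -0.14 (adjusted P = 0.293), and under the scaling on neuronal markers both were higher, at 0.35 and 0.43 (adjusted P = 0.0305 and 0.0176). Cacng7 was lower with DESeq2 (adjusted P = 0.0484) and without BCAS mouse 2 (adjusted P = 0.0117).

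Of 9 tested assembly and editing genes 3 fell, where 13.2% of all tested genes did, and the median was -0.15. Frrs1l, a subunit of the complex that builds AMPA receptors in the endoplasmic reticulum, was at 501, 483 and 467 CPM in sham mice and 306, 326 and 218 CPM in BCAS mice. It fell by 0.77 on the log2 scale with a standard error of 0.141 (adjusted P = 0.00396), and stood at -0.21 without passing the test under the scaling on neuronal markers (adjusted P = 0.112). Porcn and Cpt1c, which bind AMPA receptors in the same compartment, fell by 0.49 and 0.40 (adjusted P = 0.00254 and 0.0157), and both were above 0 under the scaling on neuronal markers. Without sham mouse 3 Cpt1c missed the threshold (adjusted P = 0.0684). Adarb1, the ADAR2 enzyme that edits the Gria2 transcript, had a log2 fold change of -0.21 (adjusted P = 0.0967), or 0.38 under that scaling. It passed without sham mouse 3, at -0.29 (adjusted P = 0.0439). Abhd12, a lipase of the endoplasmic reticulum, was the highest of the list, at 0.20 (adjusted P = 0.120). It passed with library totals, at 0.27 (adjusted P = 0.0369), and under the scaling on neuronal markers, at 0.79 (adjusted P = 0.00124).

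Anchoring and traffic genes gave 14 falls among 20 tested genes, where 13.2% of all tested genes fell. Their median was -0.43, against -0.58 for the pan-neuronal markers. Arc, the activity-induced protein that promotes AMPA receptor endocytosis, had 99.2, 166 and 143 CPM in sham mice and 42.7, 65.6 and 70.4 CPM in BCAS mice. Arc fell by 1.19 on the log2 scale with a standard error of 0.219 (adjusted P = 0.00406), and stood at -0.59 without passing the test under the scaling on neuronal markers (adjusted P = 0.0574). Dlg4, which encodes PSD-95, fell by 0.56 (adjusted P = 0.0102), and stood at 0.0019 under the scaling on neuronal markers. Dlg1, which encodes the GluA1 partner SAP97, had the highest value, 0.12 (adjusted P = 0.231), and passed under that scaling, at 0.71 (adjusted P = 0.00206).

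**Figure D4:**
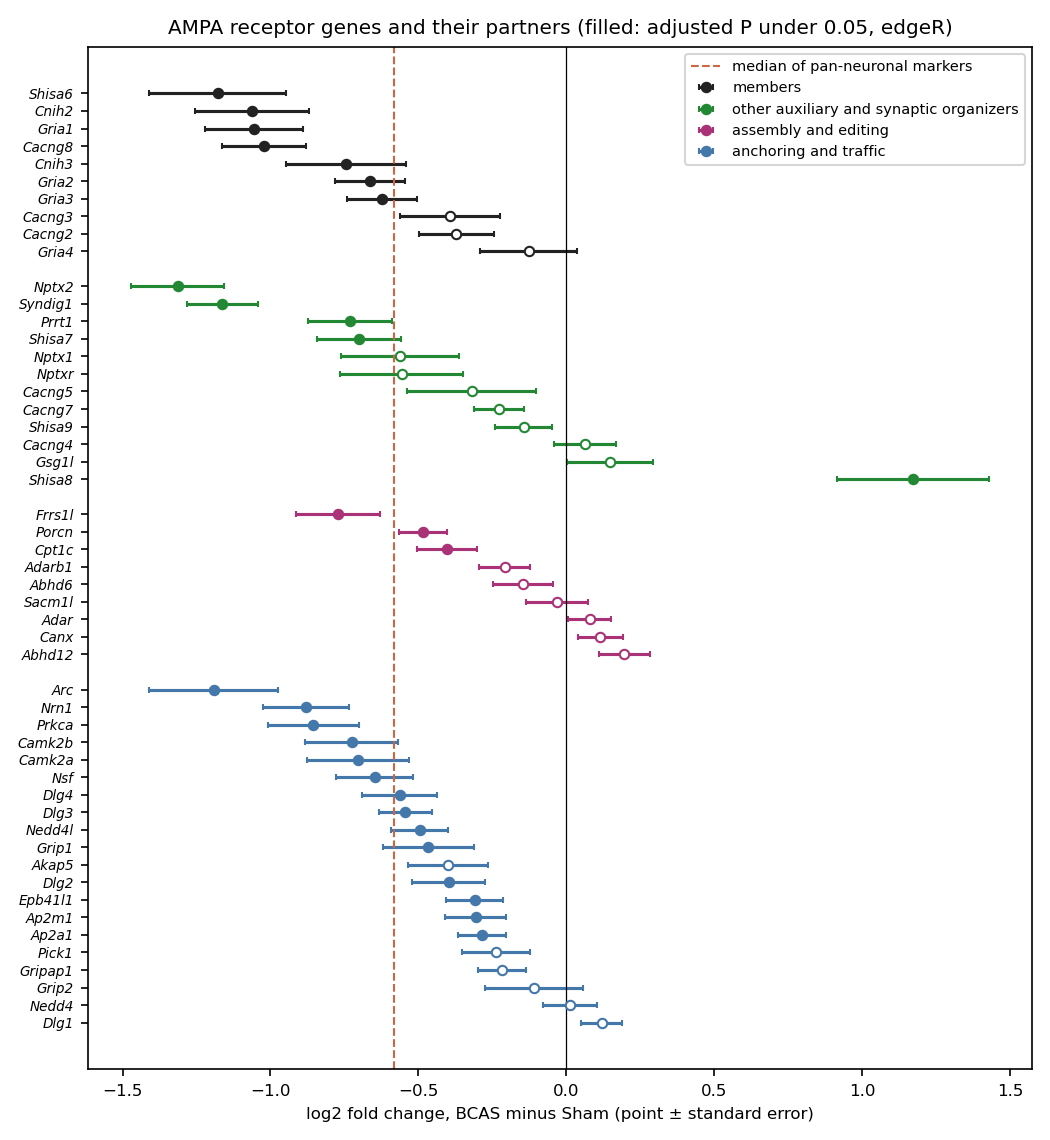
The horizontal axis gives the log2 fold change of BCAS over sham from edgeR for the 10 AMPA receptor genes (black) and 41 further genes of AMPA receptors, with bars of 1 standard error, filled symbols for an adjusted P under 0.05 and a dashed line at the median of the pan-neuronal markers, -0.58. Shisa6, Cnih2, Gria1 and Cacng8 lie to the left of that line with the whole error bar, as do Nptx2, Syndig1 and Arc among others, while Shisa8 lies far to the right.

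Other ion channel families are given for scale, and no test of a difference between families was run. Of all tested genes 13.2% fell and 18.0% rose, and of the 12 pan-neuronal markers 9 fell, with a median of -0.58. Of 6 tested NMDA receptor subunits 4 fell and 1 rose, with a median of -0.47. Grin2a, the subunit that predominates in adult forebrain, had 329, 277 and 270.2 CPM in sham mice and 162, 122 and 104 CPM in BCAS mice, and fell by 1.17 on the log2 scale (adjusted P = 0.000789). Grin1, Grin2b and Grin2d fell by 0.62, 0.77 and 0.33 (adjusted P = 0.00325, 0.00464 and 0.0498). The call of Grin2d is borderline, and under the scaling on neuronal markers its value was 0.27. Grin2c, a subunit also found in astrocytes, rose by 0.35 (adjusted P = 0.0133) and missed the threshold without sham mouse 2 or sham mouse 3 (adjusted P = 0.0582 and 0.0501). Of 9 tested kainate and delta receptor genes 4 fell, with a median of -0.27 and a range from -0.69 for Neto1 (adjusted P = 0.0219) to 0.058 for Grik3 (adjusted P = 0.748). Neto1 missed the threshold when any 1 sham mouse was left out (adjusted P of 0.0526 to 0.0730), at values of -0.70 to -0.68. Of 14 tested GABA-A receptor subunits 7 fell, with a median of -0.42, from -1.17 for Gabra5 (adjusted P = 0.00142), a subunit of extrasynaptic receptors abundant in CA1, to 0.033 for Gabrg1 (adjusted P = 0.839). Under the scaling on neuronal markers Grik3 and Gabrg1 passed, at 0.64 and 0.63 (adjusted P = 0.0136 and 0.0127).

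The genes whose log2 CPM across the 6 libraries, centred on their own mean, lay closest to that of Gria1 were sought among 10721 genes with at least 10 CPM. The nearest was Ociad2, at a Euclidean distance of 0.114 on the log2 scale, followed by Atp2b1, a plasma membrane calcium pump, Galnt17, Grin2a and Cacng8 at 0.199. Ociad2 stood at 125, 116 and 128 CPM in sham mice and 71.3, 53.7 and 45.3 CPM in BCAS mice. Among the other AMPA receptor genes Cnih2 ranked 50, Shisa6 75, Gria2 212 and Gria3 377. Cnih3 at 1401, Cacng2 at 1868, Cacng3 at 3132 and Gria4 at 5550 were much farther. With 6 libraries in 2 groups, closeness reflects mainly the difference between the groups and the order of the BCAS mice.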

How the data were processed

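RNA of the right hippocampus was sequenced in paired-end mode. The authors trimmed the reads with Trim Galore, mapped them to mm10 (HISAT2) and assigned them to genes (featureCounts). They deposited raw counts, one table per library, without normalization. Per the file headers, featureCounts 2.0.3 and GENCODE M20 were used, whereas the submitters' processing notes name featureCounts 1.6.3. Both mates of a pair count as reads under these settings, strand plays no part, and by default reads aligned to several places or shared by overlapping genes were not counted. Per the labels, the 3 sham and 3 BCAS samples are numbered 1 to 3, and the study calls them biological replicates. Total counts were 29652456 to 35607098 per library, and intervals from them would cover counting error only.

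Symbols were matched for 54723 of 54752 genes. Genes were kept by edgeR's filterByExpr (18617 genes), normalized by TMM and tested by quasi-likelihood in edgeR with no replicate block and with Benjamini-Hochberg adjustment over all of them (R 4.3.3, edgeR 4.0.16, limma 3.58.1, DESeq2 1.42.0). A gene was called at an adjusted P under 0.05, and the second threshold was an absolute log2 fold change above 1. The common biological coefficient of variation was 0.161. Log2 CPM used a prior count of 2, and levels per kb used the exon length of the count tables. Scripts were tested on simulated data. The full NRF-1 consensus replaced a shorter core of it that had been searched first, and both matched only the Gria2 window. The members, the gene lists and the tests were chosen with earlier results of these data known. Named genes were the members, 8 partners, the lowest and highest of each list and the 5 genes closest to Gria1, and further falls were named after their values were seen. The fit was repeated with DESeq2, with limma-voom, with RLE size factors or library totals in place of TMM, with a filter at 1 count in all or at a mean of 10 counts, with glmTreat, with the replicate number as a block, with scaling on pan-neuronal markers and without each library in turn.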

Additional observations from a re-analysis of the deposited data

How the results depend on the processing

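The fitted log2 fold changes of Gria1, Gria2, Gria3, Cnih2, Cnih3, Cacng8 and Shisa6 stayed below 0 under every alternative run. With glmTreat against a 2-fold change, 0 of the 10 genes passed (all 7 calls lost, adjusted P = 1, at the same values of -1.06 for Gria1 and Cnih2, -0.66 for Gria2, -0.62 for Gria3, -0.75 for Cnih3, -1.02 for Cacng8 and -1.18 for Shisa6). That test left 818 genes in all and 14 lower genes, in place of 5819 and 2463, and 14 past both thresholds in place of 186. With library totals 1 of the 10 genes passed both thresholds, as did 0.725% of tested genes in this direction. Scaling on pan-neuronal markers gave 0 past both thresholds, 10390 calls in all, 105 lower and 32 lower past both. Under it Gria2 (-0.092), Gria3 (-0.061) and Cnih3 (-0.20) lost their calls, as did Frrs1l (-0.21), Arc (-0.59), Prrt1 (-0.17), Shisa7 (-0.14), Grin1 (-0.053), Grin2b (-0.21) and Neto1 (-0.13). Gria4 (0.43), Cacng2 (0.19), Cacng3 (0.17), Adarb1 (0.38), Cpt1c (0.17), Dlg4 (0.0019), Shisa9 (0.43), Cacng7 (0.35), Porcn (0.099) and Grin2d (0.27) turned positive, as the scaling itself raises every value.

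Cacng2 passed with DESeq2 (-0.39), limma-voom (-0.39), RLE normalization (-0.39) and no filter (-0.38), and Cacng3 with no filter (-0.40). Leaving out 1 library gave 6 to 10 genes past the adjusted P and 0 to 5 past both thresholds, 0 of them without BCAS mouse 3. Over all tested genes it gave 3787 to 6648 calls, 1258 to 3083 lower, and 92 to 239 lower past both thresholds, with 92 without BCAS mouse 3, 118 without sham mouse 3 and 1258 lower without sham mouse 3. The log2 fold change ranged from -0.38 to 0.0030 for Gria4, -1.08 to -0.60 for Cnih3, -0.54 to -0.26 for Cacng2 and -0.63 to -0.28 for Cacng3. Without BCAS mouse 2 the Gria3 to Gria2 difference was -0.025 and Grik3 was -0.026, and without sham mouse 1 Gabrg1 was -0.030. Their highest values with a library left out were 0.074, 0.18 and 0.13. The cause of these shifts was not tested.

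The labels do not say whether replicate numbers pair the mice. Deviations of same-numbered sham and BCAS libraries correlated at 0.0360, -0.314 and -0.158. So few values cannot exclude a shared litter or day. With the replicate number as a block, 9 of the 10 genes passed, where 9.40% of tested genes fell, including Cacng2 (-0.39, adjusted P = 0.0454) and Cacng3 (-0.42, adjusted P = 0.0444), and Grin2d did not (adjusted P = 0.117).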
